A study of Mus musculus with 2 samples.

Results

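The 10 genes described here encode the NADPH oxidases of the gut epithelium and the enzymes that break down the peroxide they give rise to: Nox1, Noxo1, Noxa1, Cyba, Duox2, Duoxa2, Gpx1, Gpx2, Gpx3 and Cat. They were chosen by gene symbol, and all 10 were found among the 40879 symbols of the count files. The study asked how a reduced dose of ERAP1, an aminopeptidase of the endoplasmic reticulum that trims peptides for antigen presentation, bears on colitis. The intestine of mice without colitis was sequenced as 1 library per genotype, labelled wild type (WT) and ERAP1 hetero type (ERAP1+/-), each from RNA pooled from 3 mice. According to the methods, both genotypes had a C57BL/6 background and were 8 weeks old at the start, and the untreated groups drank plain water for 28 days. The mice are called germ-free there and were housed in a specific pathogen-free facility, and the mutant allele lacks exons 6 and 7 of Erap1 after a cross with a Cre strain whose promoter is not named.

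NADPH oxidases are membrane enzymes that pass electrons from NADPH to oxygen. NOX1 makes superoxide and needs a membrane partner (p22phox, encoded by Cyba), an organizer (Noxo1), an activator (Noxa1) and the GTPase RAC1, while DUOX2 releases hydrogen peroxide and leaves the endoplasmic reticulum only with its maturation factor DUOXA2. Both are known from the colonic epithelium, where they act in defense against luminal bacteria and in repair. The glutathione peroxidases GPX1, GPX2 and GPX3 and the peroxisomal enzyme catalase, encoded by Cat, remove hydrogen peroxide. Mice that lack both Gpx1 and Gpx2 are known to develop inflammation of the ileum and colon.

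The 3 glutathione peroxidases share a feature that the choice of genes did not use. Their active site holds selenocysteine, which is encoded by a UGA codon that would otherwise end translation. The coding sequence around this codon is shown for the 3 members and for Gpx4, a relative outside the set, because it marks the peroxide-reducing site of the proteins. Each run is 30 bases of the GENCODE M21 transcript, and the capitals mark the selenocysteine codon.
Gpx1: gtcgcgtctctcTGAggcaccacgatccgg
Gpx2: gtggcgtcactcTGAggaacaactacccgg
Gpx3: gtagccagctacTGAggtctgacagaccaa
Gpx4: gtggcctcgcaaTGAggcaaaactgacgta
Over these 30 bases Gpx1 and Gpx2 had 24 identical, whereas Gpx1 and Gpx3 had 14 and Gpx2 and Gpx3 also had 14. Gpx4 had 17 identical with Gpx1, 19 with Gpx2 and 17 with Gpx3. Each count includes the shared codon on which the runs were aligned. The selenocysteine codon of Gpx2 lies on chromosome 12 of GRCm38 from 76795256 to 76795258 on the minus strand.

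The WT library held 8114826 reads and the library labelled ERAP1+/- 8907515. Levels are given as CPM, the read count relative to library size, after TMM scaling (a trimmed mean of the log ratios between libraries), and 95% intervals are exact and cover counting error only. There were no replicates, so the spread between mice is unknown and genotype was not tested. Erap1 had 229 reads in WT and 2 in the library labelled ERAP1+/-, a ratio of 0.00730 (95% interval 0.000878 to 0.0267) that is far below what the loss of 1 copy alone would leave. Because the kit reads 3' ends and the deleted exons lie upstream of them, this count does not check the deletion itself. In these bulk libraries, fewer cells of a type and less RNA per cell cannot be told apart. The defining markers of epithelium were all present, with a summed level of 7914 CPM in WT and 5886 CPM in the library labelled ERAP1+/-. Small intestine markers summed to 9.65 and 9.78 CPM, and Sis and Apoa4 had no read in either library. Distal colon markers summed to 600 CPM in WT and 442 CPM in the library labelled ERAP1+/-, with 5 of 6 lower. Epidermis markers summed to 2028 and 27.6 CPM. Whether the libraries hold the same stretch of bowel was not tested. Skeletal muscle markers summed to 810 CPM in WT and 17.1 CPM in the library labelled ERAP1+/-, and plasma cell markers to 315 and 1894 CPM.

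Of the 10 genes, Nox1 was the one that differed by more than 2-fold between the libraries. It had 20 reads (2.57 CPM) in WT and 111 reads (11.9 CPM) in the library labelled ERAP1+/-, and the ratio of levels was 4.64 (95% interval 2.86 to 7.88). Gpx2 and the NOX1 partners Noxo1, Noxa1 and Cyba were higher by 1.23 to 1.43 times, and the remaining genes had ratios from 0.899 to 1.03, some of which passed to the other side of 1 under another scaling. A gene was called changed where log2(CPM + 1) differed by more than 1 and was at least 4, or 15 CPM, in 1 or both libraries. Nox1 stayed below that level in both libraries and was therefore not called. Under this rule 0 of the 8 members past the level were called, against 428 of 8013 genes or 5.34% of all genes past it, of which 111 were higher and 317 lower (166 and 248 with scaling by the total count). With a filter of at least 10 reads in 1 or both libraries in place of the level, all 10 members passed and 1, Nox1, was called higher, against 3.14% of the 15334 genes that passed. Among genes with 100 to 200 reads over both libraries, which is the range of Nox1 and Duoxa2, 3.29% were more than 2-fold higher.

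**Figure D1:**
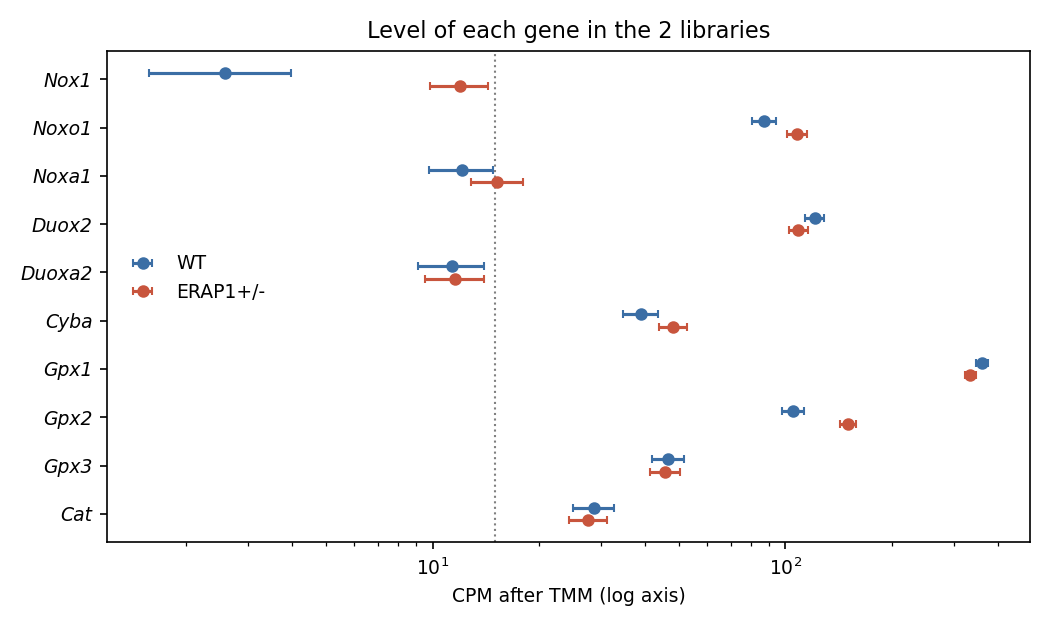
CPM after TMM scaling (log axis) of each gene in the WT library (blue) and the library labelled ERAP1+/- (red), with exact 95% counting intervals as bars; the dotted line is at 15 CPM, the level of the call rule. The intervals of Nox1 lie far apart, and those of Noxo1 and Gpx2 are separate at higher levels. Those of Cyba are only just separate, those of Gpx1 are separate with the library labelled ERAP1+/- lower, and those of Gpx3, Cat and Duoxa2 overlap almost fully.

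Nox1, the catalytic subunit, lies at chrX:134086421-134221956 of GRCm38, minus strand, in the GENCODE M21 annotation, and its transcript Nox1-201 has 13 exons and 2563 bases. Its span overlaps that of Cstf2, on the opposite strand, by 399 bases. Cstf2 had 353 reads in WT and 470 in the library labelled ERAP1+/-. The strand setting of the counting is not given in the sources used here, and sharing of reads was not tested. On the log2(CPM + 1) scale the difference of Nox1 was 1.86. Of the 8013 genes past the level, 20 had a higher difference and 6 lay within 0.1 of it, but Nox1 itself is not in that set. Among genes with 100 to 200 reads over both libraries, as Nox1 has, 74 of 2250 were more than 2-fold higher. The gene Xkrx lies on the same strand within the annotated span of Nox1 and had 23 reads in WT and 3 in the library labelled ERAP1+/-, so that its reads went the other way. Nox1 is X-linked, and the female-specific RNA Xist was at 1635 reads in WT and 6451 in the other library, a ratio of 3.30. Of the Y-linked genes, Ddx3y had 319 and 29 reads, Uty had 110 and 11, Eif2s3y had 111 and 1, and Kdm5d had 72 and 5. The part of the sex of the pooled mice in the difference of Nox1 was not tested.

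**Figure D2:**
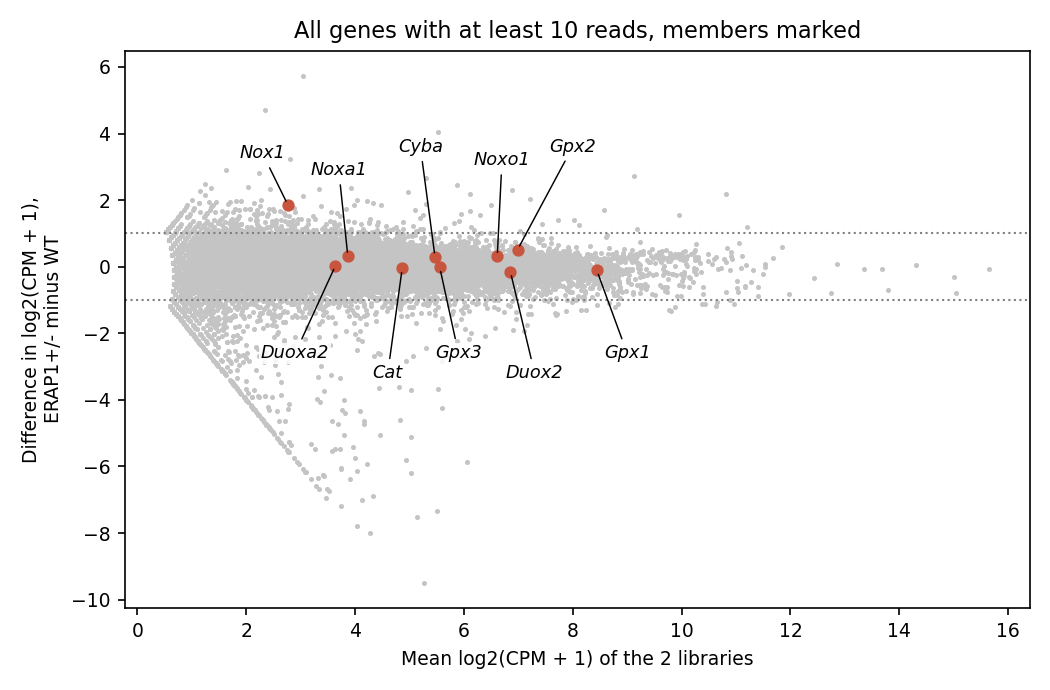
Difference in log2(CPM + 1), ERAP1+/- minus WT, against the mean of both libraries for every gene with at least 10 reads over both (grey), with the 10 members in red and dotted lines at 2-fold. Nox1 lies above the upper line at 1.86, and the other 9 members lie between -0.15 and 0.51.

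The partners of NOX1 moved less than Nox1 itself. Noxo1, the organizer that holds the complex active without stimulation, had 676 reads (87.0 CPM) in WT and 1003 reads (108 CPM) in the library labelled ERAP1+/-, a ratio of 1.24 (95% interval 1.12 to 1.37). Noxa1, the activator, had 94 and 142 reads, or 12.1 and 15.3 CPM, and its ratio of 1.26 had an interval that includes 1 (0.966 to 1.66). Cyba, whose product also serves the phagocyte oxidase, had 303 and 447 reads, or 39.0 and 48.1 CPM, a ratio of 1.23 (95% interval 1.06 to 1.43). Noxo1 (chr17:24696234-24700529, plus strand) overlaps Tbl3 (62 and 82 reads) by 2581 bases on the opposite strand. Noxa1 (chr2:25085667-25095149, minus strand) shares 50 bases with Entpd8 (319 and 354 reads) on the opposite strand. Cyba (chr8:122424776-122432930, minus strand) is overlapped over its whole 8155 bases by Gm20388 on the opposite strand, a symbol without a count here. The ratios of these 3 genes lie close together, and the interval of each includes those of the other two.

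Counts within 1 library can be set against each other without any scaling between libraries. For every 100 reads of Noxo1 there were 2.96 reads of Nox1 in WT (95% interval 1.80 to 4.61) and 11.1 in the library labelled ERAP1+/- (9.01 to 13.5). Against Cyba the numbers were 6.60 (3.97 to 10.4) and 24.8 (20.0 to 30.6), and against Noxa1 they were 21.3 (12.4 to 34.7) and 78.2 (60.4 to 101). Nox1 thus took a larger share beside each of its partners, and the intervals of the libraries did not overlap for any of them. These comparisons share the same Nox1 reads, so they restate the difference of Nox1 and are not independent. The share of Gpx2 beside Gpx1 moved the same way, with 29.1 reads of Gpx2 per 100 of Gpx1 in WT (26.9 to 31.5) and 45.1 in the library labelled ERAP1+/- (42.3 to 48.1).

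Duox2, the peroxide-releasing oxidase, had 940 reads (121 CPM) in WT and 1012 reads (109 CPM) in the library labelled ERAP1+/-. Its ratio was 0.899 (95% interval 0.822 to 0.984), 0.981 with scaling by the total count and 1.21 with scaling by the epithelium markers, so that its direction depended on the scaling. Duoxa2, its maturation factor, had 88 and 108 reads, or 11.3 and 11.6 CPM, and a ratio of 1.03 (0.766 to 1.37). Neither gene differed beyond counting error in a direction that every scaling shared. For every 100 reads of Duoxa2 there were 1068 reads of Duox2 in WT (858 to 1345) and 937 in the library labelled ERAP1+/- (768 to 1154), with intervals that overlap.

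Duox2 and Duoxa2 are neighbors on chromosome 2 of GRCm38 and point away from each other. Duox2 runs on the minus strand from 122279247 to 122298449 and Duoxa2 on the plus strand from 122298900 to 122302885, which leaves 450 bases between their starts. The second pair, Duoxa1 and Duox1, follows with the same arrangement and 1941 bases between the starts, and the 3' ends of Duoxa2 and Duoxa1 overlap by 695 bases on opposite strands. The kit keeps the strand, but the setting used in the counting is not given in the sources used here. Duox1 and Duoxa1 were looked at after their values were seen. Duox1, an oxidase known from the airway and from stratified epithelia, had 16 reads in WT and 2 in the library labelled ERAP1+/-, a ratio of 0.104 (0.0116 to 0.444). Duoxa1 had 17 and 1 reads and a ratio of 0.0491 (0.00118 to 0.314). Both stayed under 3 CPM in each library and were not called. The epidermis markers were lower as well: all 8 were called lower, their sum was 2028 CPM in WT and 27.6 CPM in the library labelled ERAP1+/-, and Ivl and Dsg1b had no read in the latter. Their part in the reads of Duox1 and Duoxa1 was not tested.

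**Figure D3:**
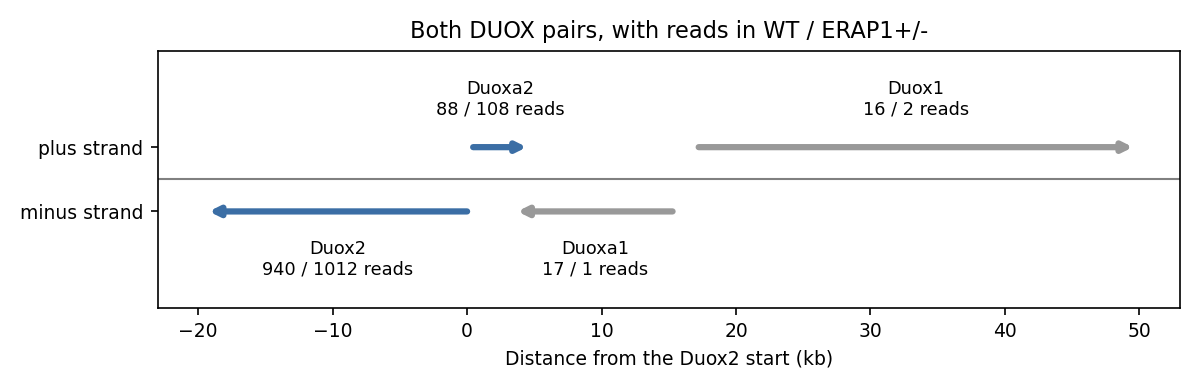
Map of the DUOX genes along chromosome 2 in kb from the start of Duox2, drawn to scale with arrows in the direction of transcription, members in blue and the other pair in grey, and with the reads in WT and in the library labelled ERAP1+/-. Duox2 and Duoxa2 had similar reads in both libraries, and Duoxa1 and Duox1 had 17 and 16 reads in WT against 1 and 2.

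Of the 4 members that remove peroxide, Gpx2 was the one whose interval lay above 1 under TMM, while Gpx1, Gpx3 and Cat were higher as well with scaling by the epithelium markers (1.24, 1.32 and 1.29). Gpx2, the glutathione peroxidase most typical of the gut epithelium, had 817 reads (105 CPM) in WT and 1401 reads (151 CPM) in the library labelled ERAP1+/-, a ratio of 1.43 (95% interval 1.31 to 1.56). Of the 8013 genes past the level, 587 had a higher difference than its 0.51 on the log2(CPM + 1) scale. Gpx2 (chr12:76792333-76795554, minus strand) lies inside Fntb, a gene of the opposite strand that had 77 and 100 reads. The pseudogene Gpx2-ps1 had 15 and 20 reads and may share reads with it. Goblet cell markers moved with it: all 6 were higher, with a sum of 8529 CPM in WT and 13778 CPM in the library labelled ERAP1+/-. Surface colonocyte markers were lower in 5 of 7, with sums of 6957 and 4726 CPM. The part of these cells in the difference of Gpx2 was not tested.

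Gpx1, the broadly expressed cytosolic enzyme (chr9:108338903-108340343, plus strand), had 2803 reads (361 CPM) in WT and 3105 reads (334 CPM) in the library labelled ERAP1+/-. Its ratio of 0.925 (95% interval 0.879 to 0.974) became 1.01 with scaling by the total count and 1.24 with scaling by the epithelium markers. Gpx3, the secreted enzyme of plasma (chr11:54902453-54910377, plus strand), had 361 and 425 reads, or 46.5 and 45.7 CPM, a ratio of 0.983 (0.853 to 1.13). Adipocyte markers summed to 82.9 and 171 CPM and smooth muscle markers to 7974 and 4103 CPM, while Gpx3 differed by less than its counting error. Cat (chr2:103453849-103485160, minus strand) had 223 and 257 reads, or 28.7 and 27.6 CPM, a ratio of 0.963 (0.801 to 1.16). The ratios of Gpx3 and Cat also passed to above 1 with scaling by the total count (1.07 and 1.05).

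**Figure D4:**
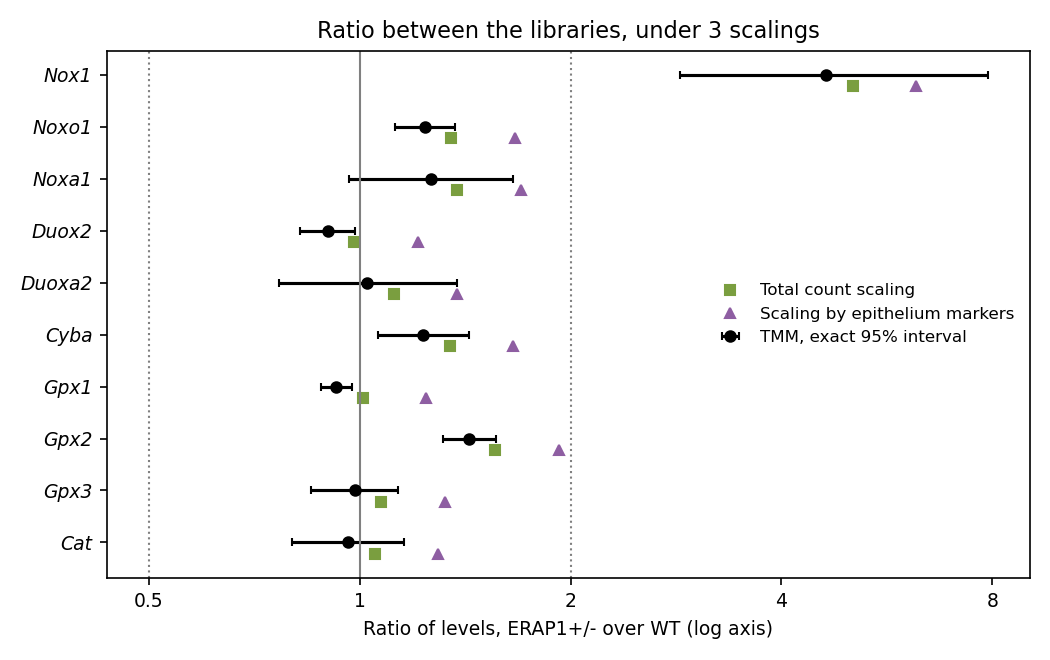
Ratio of levels, ERAP1+/- over WT (log axis), for each gene with TMM scaling and its exact 95% counting interval (black), with scaling by the total count (green squares) and by the summed reads of 9 epithelium markers (purple triangles); lines mark ratios of 0.5, 1 and 2. Nox1 lies above 2 under all 3 scalings, Noxo1, Noxa1, Cyba, Gpx2 and Duoxa2 lie between 1 and 2 under all 3, and Duox2, Gpx1, Gpx3 and Cat cross 1.

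The counting interval of the ratio excluded 1 for 5 of the 8 members past the level (Noxo1, Duox2, Cyba, Gpx1 and Gpx2). It did so for 57.9% of the 8013 genes past the level, so the share of the members was near the background. Over all 10 members the median difference in log2(CPM + 1) was 0.16, with 6 above 0 and 4 below, beside a median of -0.03 over the genes past the level, where 3787 lay above 0 and 4226 below. Without Nox1 the median of the other 9 was 0.03. Scaling by the total count moved the median of all genes up by 0.12 on the log2 scale and scaling by the epithelium markers by 0.42. Beside the latter shift, the difference of Duox2 under the same scaling was 0.27, that of Gpx1 0.31 and that of Gpx2 0.94.

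The members were first ranked by CPM divided by the length of the longest protein-coding transcript, a division that a 3' kit does not call for. Per kb, Gpx1 was the highest member in both libraries (337 CPM per kb in WT and 311 in the library labelled ERAP1+/-), followed by Gpx2 (98.5 and 141), Cyba (52.4 and 64.6), Noxo1 (38.9 and 48.2), Gpx3 (29.1 and 28.7), Duox2 (19.8 and 17.8) and Cat (11 and 10.6). Noxa1 (7.48 and 9.44), Duoxa2 (7.11 and 7.29) and Nox1 (1.00 and 4.66) came last, so that the order per kb of all 10 was the same in both libraries. Noxa1 and Duoxa2 did not differ beyond their counting intervals in WT (6.05 to 9.16 and 5.71 to 8.76) or in the library labelled ERAP1+/- (7.95 to 11.1 and 5.98 to 8.80), and Cat and Noxa1 did not in the latter (9.32 to 11.9 and 7.95 to 11.1). The kit reads 1 end of each transcript, so CPM needs no division by length. The division favors short transcripts such as that of Cyba (744 bases) over long ones such as that of Duox2 (6112 bases). Without the division the order differed between the libraries. Duox2 was then the second in WT and the third in the library labelled ERAP1+/-, and Cyba and Gpx3 changed places. Nox1 passed Duoxa2 in the latter library, within counting error (9.82 to 14.4 and 9.52 to 14.0 CPM).

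The bases ahead of the start are shown for Nox1 and Gpx2, the members with the largest differences. The sequences are from RefSeq on GRCm38.p6, cover 250 bases up to the base before the annotated start and are written 5' to 3' on the strand of the gene. All 10 members were matched by symbol, and 4 short motifs were searched on both strands. They were the core of the antioxidant element (TGACNNNGC), a STAT element (TTCNNNGAA), the element of GATA factors (AGATAA) and that of the CDX family of intestinal transcription factors (TTTATNG). Capitals mark the matches. The RefSeq start of Nox1 lies within the longer span that GENCODE gives the gene.
Nox1 (chrX:134111855-134112104, minus strand): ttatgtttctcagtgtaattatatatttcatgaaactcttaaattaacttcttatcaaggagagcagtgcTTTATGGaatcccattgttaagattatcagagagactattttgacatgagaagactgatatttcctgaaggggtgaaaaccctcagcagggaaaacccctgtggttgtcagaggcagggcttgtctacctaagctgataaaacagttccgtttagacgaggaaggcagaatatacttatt
Gpx2 (chr12:76795555-76795804, minus strand): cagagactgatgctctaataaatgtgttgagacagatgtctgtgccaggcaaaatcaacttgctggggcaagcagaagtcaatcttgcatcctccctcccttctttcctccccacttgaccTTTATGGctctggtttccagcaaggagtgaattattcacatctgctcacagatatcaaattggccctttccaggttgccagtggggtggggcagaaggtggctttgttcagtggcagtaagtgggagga
In both, the match is to TTTATNG, with its first base at -180 from the start of Nox1 and at -129 from that of Gpx2. Duoxa2 held the same motif on the other strand, at -31, where its letters include those of a TATA box. With it the motif was in 3 of 10 members beside 9.81% of 32851 promoters of this length. AGATAA was found in Cyba and Noxa1 (9.99% of all promoters), and the windows of the members held no match to TGACNNNGC (10.2% of all) or TTCNNNGAA (7.02%). Such matches describe letters in these windows and were not tested for binding.

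The other genes of the pathway were read from lists written for this purpose, and over the 10 lists 2 of the 37 genes past the level were called, or 5.41%, beside 5.34% of all genes. Both belong to the epithelial response list, and 2 lists, the other glutathione peroxidases and the heme peroxidases, had no gene past the level. In the list of other NADPH oxidase genes, 9 of 10 had at least 10 reads and their median difference was 0.26 on the log2(CPM + 1) scale. Rac1, the GTPase that NOX1 shares with other processes, had 2866 and 3013 reads and a ratio of 0.878 (95% interval 0.834 to 0.925). Cybb, the catalytic subunit of the phagocyte oxidase, had 128 and 193 reads and a ratio of 1.26 (1.00 to 1.59). Phagocyte markers summed to 104 and 153 CPM, with 4 of 7 higher and S100a8 and S100a9 called, and their part in the ratio of Cybb was not tested.

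Among the other enzymes that remove peroxide, the peroxiredoxins held by far the most reads. Prdx6, which reduces peroxides of lipids, had 41261 reads (5310 CPM) in WT and 28248 reads (3037 CPM) in the library labelled ERAP1+/-, and was 1.75-fold lower (95% interval 1.72 to 1.78). Its retrocopy Prdx6b had no read in either library. Prdx1 went the other way with 3125 and 4492 reads and a ratio of 1.20 (1.15 to 1.26), and Txn1, which recycles peroxiredoxins, had 9686 and 12649 reads and a ratio of 1.09 (1.06 to 1.12). Over the 12 genes of the peroxiredoxin and thioredoxin list the median difference was 0.08 on the log2(CPM + 1) scale, with 8 above 0 and 4 below.

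The superoxide dismutases, which make hydrogen peroxide from superoxide, had differences from -0.14 to -0.08 on the log2(CPM + 1) scale for Sod1 (4415 and 4893 reads), Sod2 (704 and 766) and Sod3 (102 and 115). For glutathione and NADPH supply the median of 7 genes was -0.01, with Pgd at -0.25, Gclc at 0.04 and Gss at -0.01. In the NRF2 system, which controls antioxidant genes, Nfe2l2 differed by 0.10 and its inhibitor Keap1 by 0.09, and the target gene Nqo1 by 0.69 with 40 and 83 reads. The other target in the list, Hmox1, chosen after its values were seen, differed by -1.32 with 22 and 5 reads. Among peroxisome genes Abcd3, a transporter of the peroxisomal membrane, differed by -0.01 and Pex11a by -0.05. In the list of selenoprotein synthesis and supply the median was 0.05, with Selenop, the selenium carrier of plasma, at -0.37 (4990 and 4617 reads), Sephs2 at -0.17 and Secisbp2 at 0.27. Of the other glutathione peroxidases, Gpx4 had 82 and 119 reads, Gpx8 had 93 and 82 and Gpx7 had 18 and 19, and the intervals of the 3 ratios include 1. The heme peroxidase Pxdn had 92 and 95 reads, Lpo had 3 and 23, and Mpo, the peroxidase of neutrophils, had 0 and 1.

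**Figure D5:**
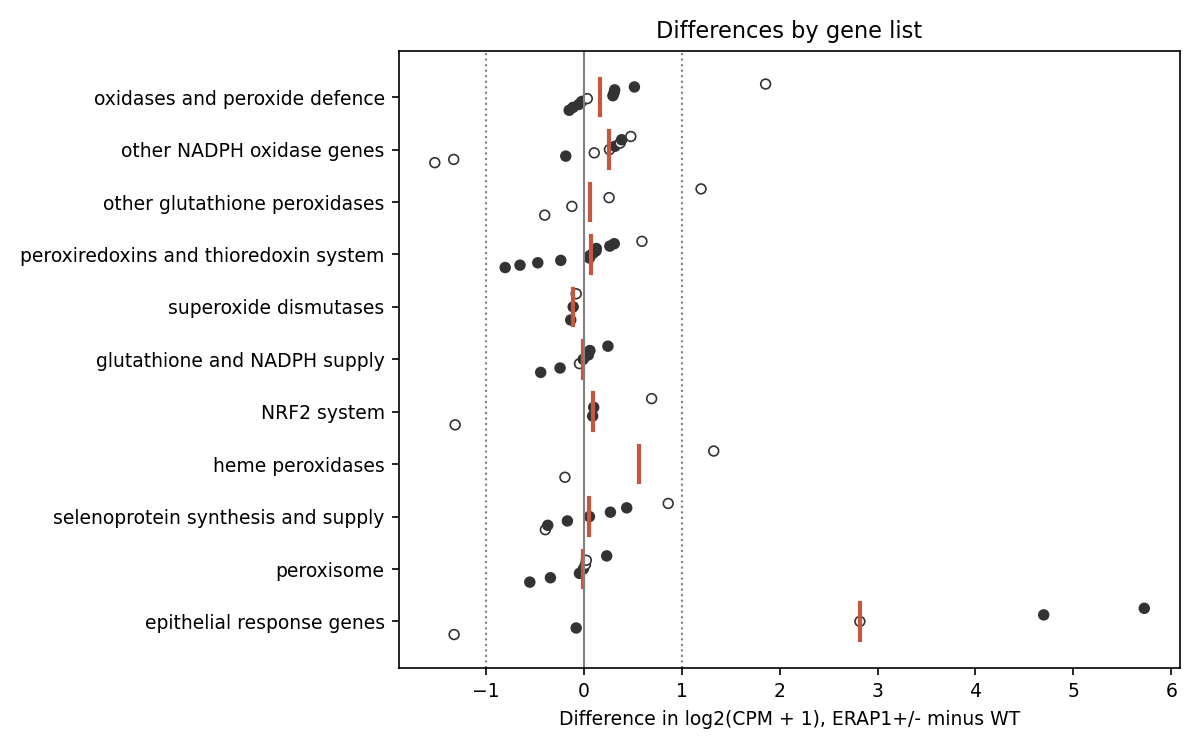
Difference in log2(CPM + 1), ERAP1+/- minus WT, for each gene with at least 10 reads over both libraries, by list; filled points were at least 4 on that scale in 1 or both libraries, open points were below it, red bars are list medians and dotted lines mark 2-fold. Medians of the oxidase and antioxidant lists lie between -0.11 and 0.56, the last from 2 heme peroxidase genes, and the 5 epithelial response genes with enough reads spread from -1.33 to 5.72, with 3 above 0 and 2 below and a median of 2.82, which is the value of Saa3.

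Duox2 is known to be induced in gut epithelium together with antimicrobial and acute-phase genes when microbes or cytokines act on it, and such genes were compared with it. Reg3b, an antimicrobial lectin, had 1 read in WT and 546 in the library labelled ERAP1+/-, a ratio of 456 (95% interval 81.5 to 18047), and Reg3g went from 0 to 232 reads, at least 64.6-fold higher when the WT library is set to a floor of 3 reads. These 2 genes were called, of 3 past the level among the 7 of the list, beside 5.34% of all genes past it. Both passed the level only through the library labelled ERAP1+/-, and the paper had already named both as higher. The share of this list is therefore not a test of it. Lcn2, an iron-scavenging defense protein named here after its values were seen, went the other way with 39 and 13 reads, a ratio of 0.278 (0.136 to 0.533). Saa3 had 6 and 107 reads, a ratio of 14.9 (6.62 to 41.5), and stayed below the level. Saa1, which had by far the most reads of the list, had 12924 and 14631 and a ratio of 0.946 (0.923 to 0.968), and Saa2 had 2 and 4 reads, although reads of these near-identical genes may be shared in the counting. Nos2, which makes nitric oxide, had 0 and 6 reads. The ratio of Duox2, 0.899, lay near that of Saa1, above that of Lcn2 and below those of Reg3b, Reg3g and Saa3.

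With 2 libraries, a pattern is the difference alone, and the genes most like a member were taken as those nearest on the log2(CPM + 1) scale among the 60 pathway genes with at least 10 reads. For Nox1 these were Lpo (1.32), Gpx5 (1.20, with 0 and 12 reads) and Saa3 (2.82), and the nearest was 0.53 away. For Duox2 they were Sod2 (-0.14), Sephs2 (-0.17) and Gpx7 (-0.12), all within 0.03, and 1570 of the 8013 genes past the level lay within 0.1 of Duox2.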

How the data were processed

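Counts of 1 library per genotype were used. The authors deposited raw counts, whole numbers of reads per gene symbol, made with the QuantSeq 3' mRNA-Seq FWD kit from pooled RNA. The methods describe STAR with HTSeq-count and also Bowtie2 with RSEM, and the submitters' processing notes name Bowtie2, RSEM and GRCm38. Which of them made the counts is not stated. Mitochondrial and ribosomal RNA took 18.0% and 16.7% of the reads.

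TMM factors (0.958 for WT and 1.04 for ERAP1+/-) came from edgeR 4.0.16 (R 4.3.3) and gave CPM and log2(CPM + 1). With 1 library per group no quasi-likelihood test could be fitted, so differences are described by a 2-fold and level rule with exact conditional binomial 95% intervals. Both were run on simulated data, but a pass was required only where counts varied by counting error alone. That check cannot show how the rule or the intervals hold where pools of mice differ. The floor for a gene without reads was 3 reads (0.386 CPM for WT, 0.322 CPM for ERAP1+/-). PCR reads without molecular identifiers are not independent molecules. Alternatives were DESeq2 1.42.0 size factors, other scalings, filters, thresholds and assumed variation. The members and lists were chosen with earlier results of these data known. The text names all members, Erap1, called genes of each pathway list and up to 3 of its genes with the most reads, and the genes nearest to Nox1 and Duox2. Of the genes this rule names, 2 from the pathway lists are not reported here. Positions are from GENCODE M21 on GRCm38. Marker lists of other cells and tissues are given as summed levels, with the genes called stated for some lists only. The epithelium markers also served as an alternative scaling.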

Additional observations from a re-analysis of the deposited data

How the results depend on the processing

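No paired analysis was possible because neither genotype was sequenced more than once. The count of members called, 0, became 1 without a level filter and 1 with at least 10 reads as the filter, in both cases Nox1, and it was 0 under the other 10 alternatives. The number of all genes called, 428, was 1434 without a filter, 1390 with at least 10 reads, 160 with a 4-fold threshold, 649 (484 higher, 165 lower) with scaling by the epithelium markers, and 235 and 126 where the exact test of edgeR was run with a biological coefficient of variation set to 0.2 and 0.4.

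Scaling by the epithelium markers moved the medians of log2 differences to 0.57 for the members, 0.50 for peroxiredoxins and thioredoxins, 0.32 for superoxide dismutases, 0.41 for glutathione and NADPH supply, 0.52 for the NRF2 system, 0.46 for selenoprotein synthesis and 0.37 for the peroxisome, because the reads of those markers were lower. Nox1, Noxo1, Noxa1, Cyba and Gpx2 stayed above 0 under 7 of 7 alternatives in scaling, gene content, pseudocount or depth, and Nox1 ran from 1.86 to 2.20. Duox2, Gpx1, Gpx3 and Cat passed above 0 with scaling by the epithelium markers, the last 3 also by the total count, and Duoxa2 was -0.05 with the library labelled ERAP1+/- thinned. The median without Nox1, added after seeing the data, became 0.43 with the epithelium markers. Genes with few reads, such as Nox1 in WT, are limited by depth, and pools of mice may differ by more than the intervals show.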
